A study of Mus musculus with 26 samples.

Results

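The enzymes that break down amino acids other than tryptophan were followed in the livers of leptin-deficient ob/ob mice given leptin. The set held 40 genes, chosen by gene symbol as enzymes of the histidine, tyrosine, proline and ornithine, lysine, glycine and serine, branched-chain and cysteine routes together with the transaminases. Of these, 29 had at least 1 probe detected on 4 or more arrays and were tested, out of 7953 named genes tested in all. A probe was listed for Tat, Aldh7a1, Gcsh, Amt and Hibch but was detected on at most 1 of the 26 arrays, and Amdhd1, Hgd, Sds, Sdsl, Tdh and Mccc2 were not analysed here.

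The liver is the main site where amino acids in excess of the need for protein are taken apart. Transaminases move the amino group to glutamate, glutamate dehydrogenase releases it as ammonia for the urea cycle, and the carbon skeletons enter the citric acid cycle, glucose synthesis or ketone body synthesis. Many of these enzymes are made in larger amounts in fasting or on a high-protein diet, under glucagon and glucocorticoids, and in smaller amounts under insulin.

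The ob/ob mice were females on the C57BL6 background, homozygous for the obese mutation of the leptin gene and 15 weeks old when an osmotic pump was implanted for 12 days, with free access to food. LEP-SQ mice received 10 µg leptin per day under the skin, and VEH-SQ mice received saline by the same route (n = 4 each). LEP-ICV mice received 1.5 µg leptin per day into a brain ventricle and lost weight, LEP-ICVN mice were assigned the same infusion but lost little or no weight, and VEH-ICV mice received artificial cerebrospinal fluid (n = 4 each). LEP-ICV and LEP-ICVN were thus told apart by weight loss, and whether leptin reached the ventricle in LEP-ICVN mice was uncertain. The B6 group (n = 6) was of strain C57BL6 and carried the label baseline, and neither sex nor age was given for them. The study's own headings mark 3 of the 6 with aCSF, its abbreviation for the brain vehicle, and name no treatment for the others, so that ob/ob genotype could not be told apart from pump, surgery or age in comparisons with B6. Each array held 1 liver.

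Levels are given as background-corrected, quantile-normalized log2 intensities, on which a difference of 1 is a 2-fold change, and each gene stands by its brightest tested probe. The levels of different genes rest on different probes and were not compared with each other. The 7 tested hepatocyte markers averaged between 13.2 and 14.55 on every array and the 3 listed kidney markers did not pass the detection filter. The arrays fell into 2 classes by background intensity: 12 arrays had a background of 107.1 to 126.2 and 14 arrays had 161.4 to 200.8. The high class took in every LEP-SQ and B6 array, the low class every VEH-SQ and VEH-ICV array, and LEP-ICV and LEP-ICVN had 2 arrays in each. Between 6786 and 11117 probes were detected per array. Leptin under the skin and the class therefore cannot be told apart within the SQ groups alone, and the main counts below are also given with the class as a block, which draws the class effect from the LEP-ICV and LEP-ICVN arrays.

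Promoter sequences are shown for Hal, Uroc1, Prodh and Aass, since these 4 genes were lower in LEP-ICV than in VEH-ICV livers under every alternative processing tried and without any single mouse. Histidine ammonia-lyase (Hal) takes the first step of histidine breakdown and urocanase (Uroc1) the next, proline dehydrogenase (Prodh) takes the first step of proline breakdown, and aminoadipate-semialdehyde synthase (Aass) the first steps of lysine breakdown. The sequences are from RefSeq on GRCm38.p6, 300 bases each, with 250 bases before and 50 after the start of the gene, read 5′ to 3′ on the gene's strand; capitals mark matches to the motifs searched.
Hal, chr10:93488518-93488817, plus strand: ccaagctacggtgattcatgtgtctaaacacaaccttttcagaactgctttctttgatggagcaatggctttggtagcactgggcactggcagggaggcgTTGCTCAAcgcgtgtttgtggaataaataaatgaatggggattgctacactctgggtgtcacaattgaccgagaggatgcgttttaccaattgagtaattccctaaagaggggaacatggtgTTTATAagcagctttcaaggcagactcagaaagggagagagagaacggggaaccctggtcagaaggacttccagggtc
Uroc1, chr6:90333039-90333338, plus strand: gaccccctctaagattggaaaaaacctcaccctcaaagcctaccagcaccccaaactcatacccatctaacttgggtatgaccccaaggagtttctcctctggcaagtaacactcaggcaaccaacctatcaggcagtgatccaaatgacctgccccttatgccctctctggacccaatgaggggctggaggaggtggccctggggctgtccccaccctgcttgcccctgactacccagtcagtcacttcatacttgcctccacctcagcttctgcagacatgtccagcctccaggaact
Prodh, chr16:18089141-18089440, minus strand: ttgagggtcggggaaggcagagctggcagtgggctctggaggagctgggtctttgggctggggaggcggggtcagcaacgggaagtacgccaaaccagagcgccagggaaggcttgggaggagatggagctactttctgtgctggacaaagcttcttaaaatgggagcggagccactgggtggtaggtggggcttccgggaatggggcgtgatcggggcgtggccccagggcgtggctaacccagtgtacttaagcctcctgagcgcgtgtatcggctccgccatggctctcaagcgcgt
Aass, chr6:23132937-23133236, minus strand: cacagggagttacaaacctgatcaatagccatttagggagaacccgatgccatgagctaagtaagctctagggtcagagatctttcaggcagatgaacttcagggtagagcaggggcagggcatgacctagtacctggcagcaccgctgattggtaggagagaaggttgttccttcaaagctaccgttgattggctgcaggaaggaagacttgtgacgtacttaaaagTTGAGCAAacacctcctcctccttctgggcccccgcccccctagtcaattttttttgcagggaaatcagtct

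The motifs searched, 8 in all and on both strands, were the cAMP response element (TGACGTCA), C/EBP (TTGCNNAA), C/EBP-ATF (TGATGNAA), HNF4 (CAAAGTCCA), HNF1 (searched by its consensus site), FOXA (TGTTTAC), the glucocorticoid receptor half-site (AGAACA) and the TATA box (TATAAA), and none of these motifs contains another. C/EBP letters stood at bases 101 to 108 of the Hal window and, on the opposite strand, at bases 229 to 236 of the Aass window. The Hal window also held TATA box letters on the opposite strand at bases 223 to 228, and the Uroc1 and Prodh windows held none of the 8 motifs. Promoters were found for 25 of the 29 tested genes, and C/EBP letters occurred in 5 of these (Aass, Agxt2, Gcdh, Hal and Prodh2), against 10.8% of all 32851 promoters. The 25 genes had 29 promoters, and a gene counted if any of its promoters matched. Counts of genes are thus not strictly comparable with shares of promoters. TATA box letters occurred in 4 of the 25 genes, against 13.6% of all promoters, and glucocorticoid receptor half-site letters in 2, against 19% of all promoters. The cAMP response element letters were in none of the 25, against 1.79% of all promoters. A match describes letters in the window and no more.

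In LEP-ICV livers 14 of the 29 genes were lower than in VEH-ICV livers and none was higher (limma, Benjamini-Hochberg adjusted p under 0.05 over all tested probes). Among all named genes tested, 11.5% were lower and 13.5% higher in this comparison. The lower genes came from the histidine, tyrosine, proline, lysine, transamination and branched-chain routes, and the largest decreases were those of Prodh, Aass, Hpd, Hal and Uroc1. The median difference of the 29 genes was -0.63 on the log2 scale, against 0.0099 over all named genes, and 27 of the 29 lay below the median of all genes. In whole liver, fewer cells of a type and less RNA per cell cannot be told apart. LEP-ICV mice were picked by weight loss, and the study reported lower food intake and serum insulin with leptin by both routes. Leptin itself, less feeding and weight loss therefore cannot be told apart either. Uroc1, Hpd, Prodh, Aass, Gcdh and Gpt were also on the list of genes that the study itself chose for correlation with weight loss on these arrays, so that their direction is not independent evidence.

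In the histidine route, Hal had levels of 12.43, 9.27, 10.59 and 10.26 in LEP_ICV_1003, LEP_ICV_1014, LEP_ICV_1017 and LEP_ICV_1019, against 12.64, 12.61, 13.15 and 13.06 in the 4 VEH-ICV mice. Every LEP-ICV mouse was below every VEH-ICV mouse, and LEP_ICV_1003 was only just below them. The difference was -2.23 ± 0.40 (SE, 4.68-fold lower, limma adjusted p = 4.4e-04). Uroc1 had levels of 14.53, 12.04, 12.76 and 13.25 in the 4 LEP-ICV mice, against 15.06, 15.21, 15.04 and 15.08 in VEH-ICV mice. The groups again did not overlap, LEP_ICV_1003 was the nearest to the controls and LEP_ICV_1014 the farthest, and the difference was -1.95 ± 0.32 (SE, 3.87-fold lower, limma adjusted p = 2.0e-04). Ftcd, which passes the last carbon of histidine to folate, differed by -0.46 ± 0.22 (SE) and did not pass the threshold (limma adjusted p = 0.12).

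All 3 tested genes of tyrosine breakdown were lower. Hpd, the dioxygenase that makes homogentisate, had levels of 13.50, 9.92, 11.86 and 12.99 in the 4 LEP-ICV mice in the same order, against 14.22, 14.37, 14.33 and 14.45 in VEH-ICV mice. The groups did not overlap, and the 4 LEP-ICV livers were spread over more than 3 log2 units while the VEH-ICV livers were close together. The difference was -2.28 ± 0.46 (SE, 4.84-fold lower, limma adjusted p = 0.0013). Gstz1, which isomerizes maleylacetoacetate, was lower by a smaller amount (-0.66 ± 0.20, SE), as was Fah, the last enzyme of the route (-0.53 ± 0.19, SE), with limma adjusted p-values of 0.020 and 0.042. The call of Fah was lost with the class as a block (-0.42, limma adjusted p = 0.19).

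Proline and lysine breakdown gave the largest differences of the set. Prodh had levels of 9.79, 7.38, 8.27 and 8.34 in the 4 LEP-ICV mice in the same order, against 10.90, 11.47, 11.47 and 10.97 in VEH-ICV mice. All LEP-ICV livers were more than 1 log2 unit below the lowest VEH-ICV liver. The difference was -2.76 ± 0.35 (SE, 6.77-fold lower, limma adjusted p = 1.0e-05). The other genes of this route, Prodh2 (which oxidizes hydroxyproline), Aldh4a1 (which completes the conversion to glutamate) and Oat (which takes in ornithine), differed by -0.67, -0.20 and -0.18 without passing the threshold, although Aldh4a1 passed it with the class as a block (-0.52, limma adjusted p = 0.039).

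Aass had levels of 10.13, 7.75, 7.84 and 8.32 in the 4 LEP-ICV mice in the same order, against 11.18, 11.33, 11.19 and 11.10 in VEH-ICV mice. Of the LEP-ICV livers 3 were near 8, while LEP_ICV_1003 lay between them and the controls, and the groups did not overlap. The difference was -2.69 ± 0.40 (SE, 6.46-fold lower, limma adjusted p = 7.3e-05). A second, dim Aass probe was not detected on any LEP-ICV or VEH-ICV array. Gcdh, which oxidizes glutaryl-CoA further along the route, had levels of 13.69, 12.67, 12.31 and 12.70 in the 4 LEP-ICV mice, against 13.87, 13.85, 13.80 and 13.79 in VEH-ICV mice. Again the groups were separate and LEP_ICV_1003 stood next to the controls. The difference was -0.98 ± 0.22 (SE, limma adjusted p = 0.0031), and a second, dimmer Gcdh probe differed by -1.59 with some overlap (limma adjusted p = 0.0057, or 0.06 with the class as a block).

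**Figure D1:**
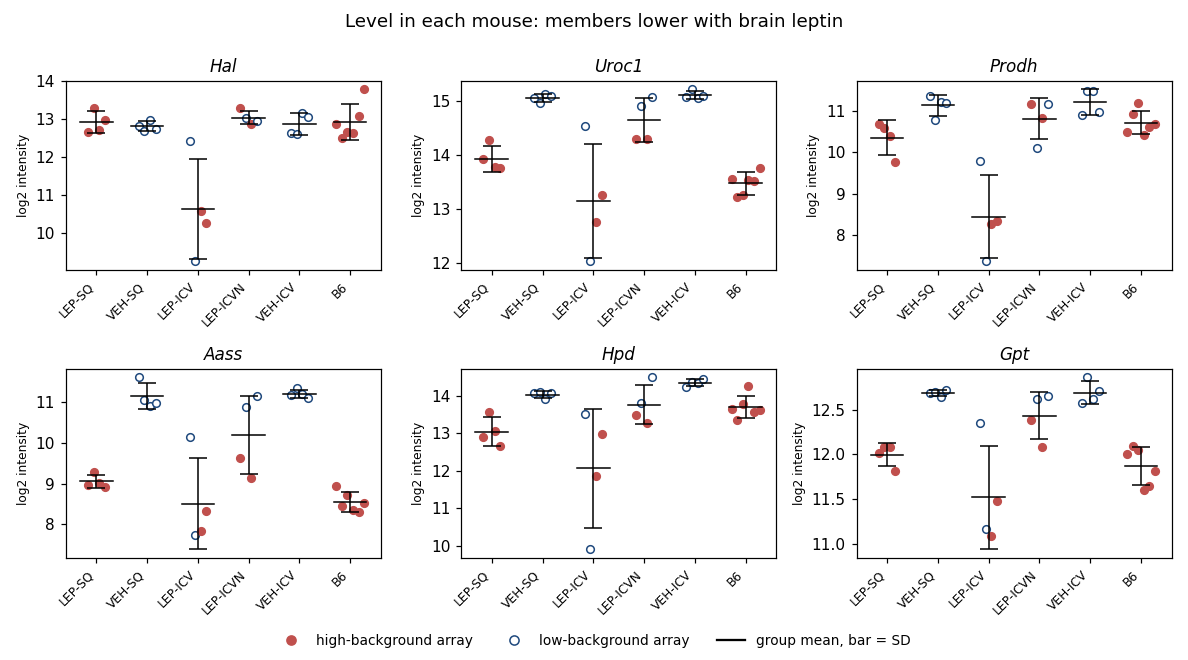
Log2 intensity of 6 genes in each of the 26 livers, by group, with the group mean and its SD as lines and the array background class as the fill of the point. In each panel the LEP-ICV mice spread downwards, with LEP_ICV_1003 (upper open point) the nearest to VEH-ICV and LEP_ICV_1014 (lower open point) the lowest or next to lowest.

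Among the 7 tested genes of transamination and glutamate, Got1 and Gpt were lower. Got1, the cytosolic aspartate aminotransferase, had levels of 7.41, 6.49, 6.95 and 7.19 in the 4 LEP-ICV mice in the same order, against 8.43, 7.97, 8.56 and 8.26 in VEH-ICV mice. The highest LEP-ICV liver was below the lowest VEH-ICV liver. The difference was -1.29 ± 0.33 (SE, 2.45-fold lower, limma adjusted p = 0.0080), and Got2, its mitochondrial counterpart, differed by -0.22 ± 0.13 (SE, limma adjusted p = 0.23). The Got1 call was lost under median scaling (limma adjusted p = 0.28). Gpt, the cytosolic alanine aminotransferase, ranged between 11.09 and 12.35 in the 4 LEP-ICV mice, against 12.57 to 12.86 in VEH-ICV mice, a difference of -1.17 ± 0.21 (SE, limma adjusted p = 5.7e-04). Gpt2, the mitochondrial form, had levels of 13.40, 14.08, 13.10 and 13.84 in the 4 LEP-ICV mice in the same order, against 13.98, 14.17, 14.00 and 13.91 in VEH-ICV mice. These 2 groups overlapped, and Gpt2 did not pass the threshold (-0.41 ± 0.24, SE, limma adjusted p = 0.21). Agxt and Agxt2, which use glyoxylate, and Glud1, glutamate dehydrogenase, did not pass it either.

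Of the 6 tested genes of branched-chain breakdown, 4 were lower. Dbt, the E2 core of the branched-chain ketoacid dehydrogenase, had levels of 8.64, 8.67, 9.90 and 8.46 in the 4 LEP-ICV mice in the same order, against 10.46, 9.95, 10.52 and 9.75 in VEH-ICV mice. In this gene 3 LEP-ICV livers were below all VEH-ICV livers, and LEP_ICV_1017 lay within their range. The difference was -1.25 ± 0.29 (SE, 2.39-fold lower, limma adjusted p = 0.0036). A second Dbt probe was detected on 3 of 4 VEH-ICV arrays and on no LEP-ICV array, which bounds its decrease at least 2.32-fold lower when the LEP-ICV arrays are set at their detection floor (limma adjusted p = 0.0016).

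Bckdhb, the E1 beta subunit of the same complex, had levels of 12.32, 11.19, 9.92 and 10.69 in the 4 LEP-ICV mice in the same order, against 11.58, 12.09, 12.24 and 12.04 in VEH-ICV mice. Mouse LEP_ICV_1003 was above all VEH-ICV mice, while the other LEP-ICV mice were below them. The adjusted p of 0.0497 was just inside the threshold (limma, -0.96 ± 0.35, SE), and the call was lost with the class as a block (-0.31, limma adjusted p = 0.50). Mccc1, a subunit of the leucine-route carboxylase, had levels of 9.61, 9.02, 7.37 and 9.04 in the 4 LEP-ICV mice, against 10.29, 9.67, 10.19 and 10.49 in VEH-ICV mice. The groups did not overlap (-1.40 ± 0.40, SE, limma adjusted p = 0.014), but this call was lost with the block as well (-0.78, limma adjusted p = 0.16). Ivd, isovaleryl-CoA dehydrogenase, was lower by 0.68 on the log2 scale (limma adjusted p = 0.048), whereas Bckdha and Hibadh did not pass the threshold. The Ivd groups overlapped, with 10.30 to 11.59 in LEP-ICV and 11.29 to 11.99 in VEH-ICV mice. The Ivd call was lost under median scaling, without the filter and with only the groups compared. It held in 4 of the 8 fits that left out 1 mouse. Hibadh passed as lower with the block (-0.60, limma adjusted p = 0.025).

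None of the 3 cysteine genes passed the threshold, and Gldc, the only tested gene of glycine cleavage, differed by -0.12 ± 0.26 (SE) on its brighter probe and by 0.46 on its dimmer probe (limma adjusted p = 0.75 and 0.61). The dimmer Ftcd probe, detected on 1 LEP-ICV array and no VEH-ICV array, differed by 0.05. Without overlap between the groups, 13 of the 29 genes lay below VEH-ICV, against 8.89% of all named genes, and none lay above, against 9.91%. With the background class as a block, 13 genes were lower and none higher, against 5.32% and 7.24% of all named genes. Fah, Bckdhb and Mccc1 lost their calls there, and Aldh4a1 and Hibadh gained one. Between the 2 low-background LEP-ICV arrays and the VEH-ICV arrays, all in the low class, 11 genes were lower and none higher, against 5% of all named genes lower, among them Hal (-2.02), Uroc1 (-1.81), Hpd (-2.63), Prodh (-2.62) and Aass (-2.26).

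Mouse LEP_ICV_1003 was the nearest to the VEH-ICV mice for each of Hal, Uroc1, Hpd, Prodh, Aass and Gcdh, and LEP_ICV_1014 the farthest for Hal, Uroc1, Hpd, Prodh and Aass, although both arrays were in the low class. Without LEP_ICV_1003, 18 genes were lower, and Prodh and Aass then differed by -3.21 and -3.23 on the log2 scale. Without LEP_ICV_1014, 10 genes were lower, and without VEH_ICV_1011 also 10. The share of all named genes was not computed for these fits, so whether the counts changed more than those of all genes is not known. A fit with only the 8 mice of the 2 groups, which estimates the spread from these mice alone, called 5 genes lower (Hal, Uroc1, Prodh, Aass and Got1), against 2.88% of all named genes.

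Mice assigned the same brain infusion that did not lose weight were set against the same VEH-ICV controls as LEP-ICV. None of the 29 genes passed the threshold in LEP-ICVN against VEH-ICV (limma), against 0% of all named genes, and 5 had an unadjusted p under 0.05, against 2050 of the 7953 named genes. Every one of the 29 overlapped between these groups, while 1.72% of all named genes lay below and 1.5% above without overlap. Hal had levels of 13.28, 13.01, 12.87 and 12.96 in LEP_ICVN_1001, LEP_ICVN_1004, LEP_ICVN_1008 and LEP_ICVN_1016, within or just above the VEH-ICV range. Prodh had 11.17, 10.10, 10.82 and 11.15 in the same LEP-ICVN mice, where only LEP_ICVN_1004 was well below VEH-ICV. The differences were 0.17 ± 0.40 for Hal and -0.39 ± 0.35 for Prodh (SE). The tested probes of Ftcd, Prodh2, Aass and Dbt disagreed in direction here, and none of them passed.

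Some genes split by array class within LEP-ICVN. Aass had levels of 9.64 and 9.14 in LEP_ICVN_1001 and LEP_ICVN_1008, whose arrays were in the high class, and of 10.87 and 11.14 in LEP_ICVN_1004 and LEP_ICVN_1016, in the low class. Mccc1 followed the same split, with 8.72 and 8.52 in the high-class mice and 9.83 and 10.12 in the low-class mice. Cth, which cleaves cystathionine to cysteine, split the other way, with 10.25 and 9.02 in the high class and 5.38 and 6.49 in the low class. In the model with the block, 6 of the 29 genes were higher and 5 lower in the high class, against 35.1% of all named genes in either direction. The higher ones were Cth (2.37), Oat (1.17), Hibadh (0.68), Aldh4a1 (0.63), Ivd (0.56) and Gstz1 (0.49), and the lower ones were Bckdhb (-1.30), Aass (-1.24), Mccc1 (-1.23), Bckdha (-0.82) and Gcdh (-0.65), as log2 differences. Without LEP_ICVN_1016, whose array was in the low class, 5 genes passed the threshold against VEH-ICV, namely Glud1 (2.95) and Cth (2.41) as higher and Fah (-0.59), Aass (-1.32) and Mccc1 (-1.13) as lower. The share of all named genes called in that fit was not computed, so whether these calls exceed it is not known. Glud1 and Cth were each detected on 1 of the 4 VEH-ICV arrays.

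Set directly against LEP-ICVN, LEP-ICV livers had 10 of the 29 genes lower and none higher (limma), where 8.02% of all named genes were called, 3.13% lower and 4.89% higher. These were Prodh (-2.37 ± 0.35, SE, limma adjusted p = 1.2e-04), Hal (-2.39 ± 0.40, SE, limma adjusted p = 4.0e-04), Hpd, Aass, Uroc1, Dbt, Gpt, Ivd, Gstz1 and Gcdh. With the class as a block 11 were lower, Hibadh being the one added, and none higher, against 4.64% and 7.09% of all named genes. The LEP-ICV mice are the same as in the comparison with VEH-ICV, so that the 2 comparisons are not independent. Hal and Prodh did not overlap between LEP-ICV and LEP-ICVN, and neither did Gstz1 and Dbt, which made 4 of the 29 genes below, against 3.27% of all named genes, and none above, against 4.61%. Both groups held 2 arrays of each class. Within the high class, Hal differed by -2.65 and Prodh by -2.69 (limma adjusted p = 0.0065 and 0.00185), and within the low class Prodh differed by -2.04 and Aass by -2.06 (limma adjusted p = 0.035 and 0.019). Hal did not pass within the low class (-2.14, limma adjusted p = 0.056). Uroc1 and Hpd also passed as lower within the low class. Within the high class Uroc1 (-1.28), Aass (-1.31) and Hpd (-0.96) did not pass (limma adjusted p = 0.074, 0.074 and 0.35). In all, 4 of the 29 genes were lower within the low class and 6 within the high class, against 0.981% and 3.61% of all named genes. With only these 8 mice in the fit no gene passed the threshold, against 0.126% of all named genes lower. Without LEP_ICV_1014 the count was 5, in a fit for which the share of all named genes was not computed.

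**Figure D2:**
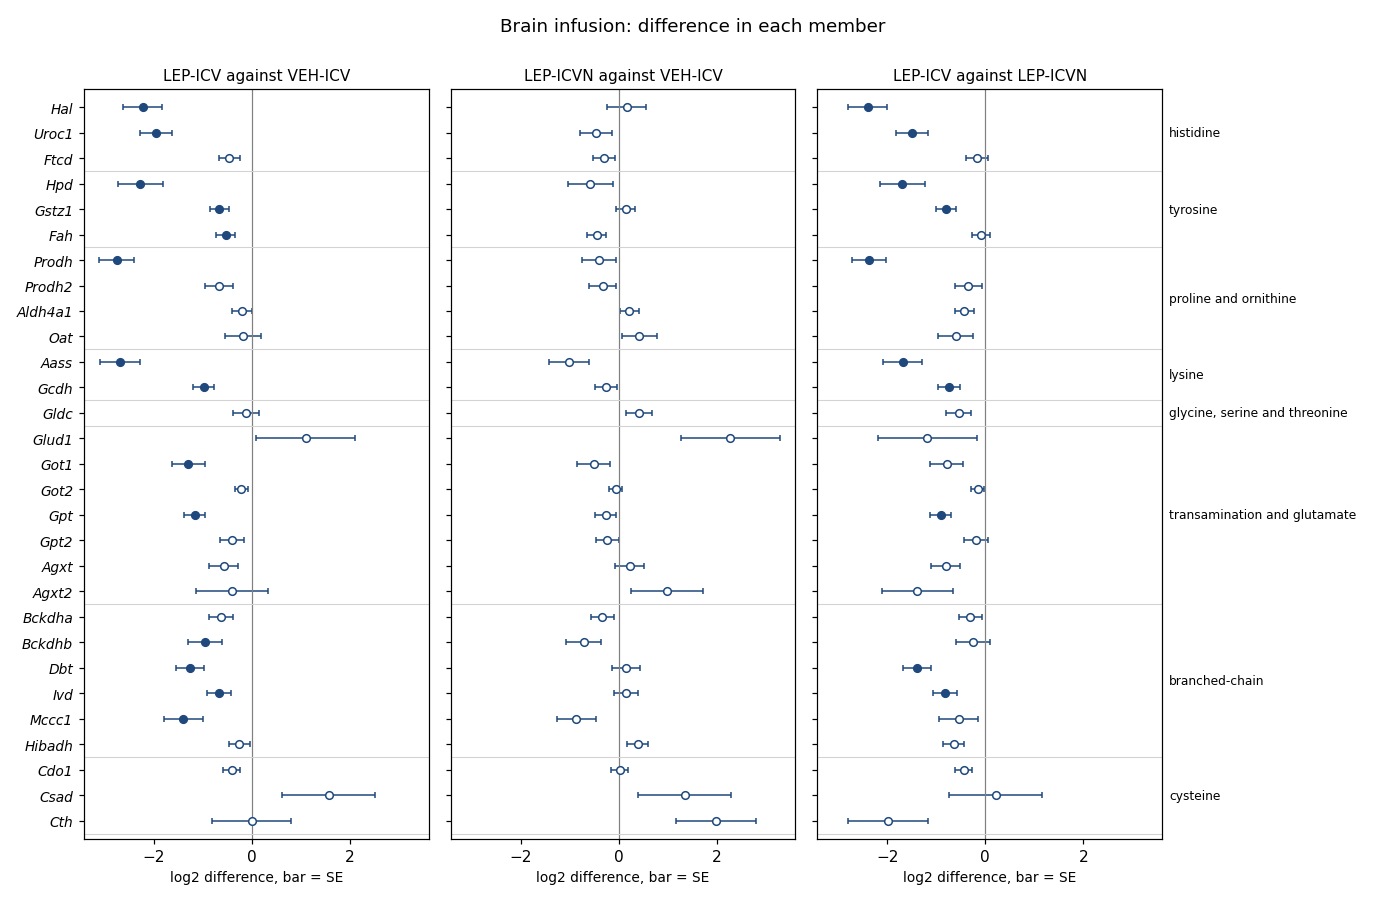
Log2 difference of each of the 29 genes in 3 comparisons of the brain infusion, ordered by route, with SE bars; filled points have a limma adjusted p under 0.05. LEP-ICV lay to the left of 0 for most genes against VEH-ICV (14 filled) and against LEP-ICVN (10 filled), and LEP-ICVN against VEH-ICV had no filled point.

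LEP-SQ livers gave 14 calls among the 29 genes against VEH-SQ, 4 higher and 10 lower (limma), where 40.1% of all named genes were called, 19.1% higher and 21% lower. Without overlap between the groups, 13 of the 29 lay below VEH-SQ and 7 above, against 26.1% and 24.2% of all named genes. The lower genes were Aass, Got1, Mccc1, Gpt2, Bckdhb, Uroc1, Bckdha, Gcdh, Gpt and Fah, and the higher ones Glud1, Csad, Cth and Hibadh. In the 8 fits that each left out 1 mouse, Fah and Hibadh each held in 1 and Cth in 4. With the array class as a block none of the 29 passed the threshold, against 0.277% of all named genes (0.101% higher and 0.176% lower), and 2 had an unadjusted p under 0.05. No LEP-SQ array shares a class with a VEH-SQ array, so that the part of the class in these differences cannot be told apart within these groups.

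Aass had levels of 8.98, 9.30, 9.02 and 8.93 in LEP-SQ mice, against 11.61, 11.06, 10.91 and 10.98 in VEH-SQ mice. The groups were far apart, and the difference was -2.08 ± 0.40 (SE, 4.24-fold lower, limma adjusted p = 0.0018), or -0.84 with the block (limma adjusted p = 0.70). Gpt2 had levels of 13.11, 12.82, 12.45 and 12.15 in LEP-SQ mice, against 14.23, 14.38, 14.20 and 14.21 in VEH-SQ mice. It was lower in every LEP-SQ liver (-1.62 ± 0.24, SE, 3.08-fold lower, limma adjusted p = 2.4e-04), and with the block the difference was -1.36 (limma adjusted p = 0.12). Got1 likewise had 6.34, 7.43, 7.06 and 6.53 in LEP-SQ mice, against 8.93, 8.62, 8.18 and 8.40 in VEH-SQ mice, without overlap. Its difference was -1.69 ± 0.33 (SE, limma adjusted p = 0.0019) and was -1.80 with the block (limma adjusted p = 0.18). The Got1 call was lost under median scaling as well.

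For Mccc1, Bckdhb and Bckdha the difference was smaller with the block. Mccc1 had levels of 8.62, 8.87, 8.60 and 9.08 in LEP-SQ mice, against 10.33, 10.73, 10.65 and 10.08 in VEH-SQ mice. Bckdhb had 10.97, 10.95, 10.35 and 10.25 in LEP-SQ mice, against 11.78, 11.99, 12.01 and 11.94 in VEH-SQ mice. Neither gene overlapped between the groups. Mccc1 differed by -1.66 ± 0.40 (SE, limma adjusted p = 0.0047) and by -0.43 with the block, Bckdhb by -1.30 ± 0.35 (SE, limma adjusted p = 0.0078) and by -0.0012 with the block, and Bckdha by -1.09 ± 0.24 (SE, limma adjusted p = 0.0032) and by -0.27 with the block. The 2 probes of Dbt disagreed. Its brighter probe differed by 0.64 (limma adjusted p = 0.074) and its dimmer probe by -1.72 (limma adjusted p = 0.0031). Gldc likewise differed by -0.06 on its brighter probe and by 1.76 on its dimmer probe (limma adjusted p = 0.87 and 0.030), and the dimmer probe by -0.18 with the block (limma adjusted p = 0.97). Prodh2 differed by -0.34 on the brightest of 3 probes and by 0.17 and 0.25 on the others, none of which passed. The dim probes of Ftcd and Aass, detected on at most 1 LEP-SQ array and no VEH-SQ array, also lay opposite to the brighter ones without passing.

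Of the 4 higher genes, Glud1, Csad and Cth had probes near the detection limit. Glud1 had levels of 10.54, 8.68, 10.67 and 11.18 in LEP-SQ mice, against 6.79, 4.51, 7.0 and 6.89 in VEH-SQ mice. Csad, which makes hypotaurine from cysteine sulfinate, had 10.13, 8.43, 11.09 and 10.98 in LEP-SQ mice, against 7.60, 4.69, 6.83 and 7.96 in VEH-SQ mice. Cth had 8.49, 8.23, 8.96 and 9.43 in LEP-SQ mice, against 7.34, 5.71, 7.17 and 5.91 in VEH-SQ mice. Each gene was separate between the groups, and VEH_SQ_1034, whose array had the fewest detected probes, was the lowest of its group for all 3. The differences were 3.97 ± 1.01 for Glud1, 3.39 ± 0.95 for Csad and 2.24 ± 0.81 for Cth (SE, limma adjusted p = 0.0061, 0.0093 and 0.031), and 1.88, 1.27 and -0.13 with the block (limma adjusted p = 0.77, 0.85 and 0.99). Cth was detected on 2 of 4 VEH-SQ arrays, and Glud1 and Csad on 3 of 4. A second Glud1 probe differed by 0.66 (limma adjusted p = 0.056).

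**Figure D3:**
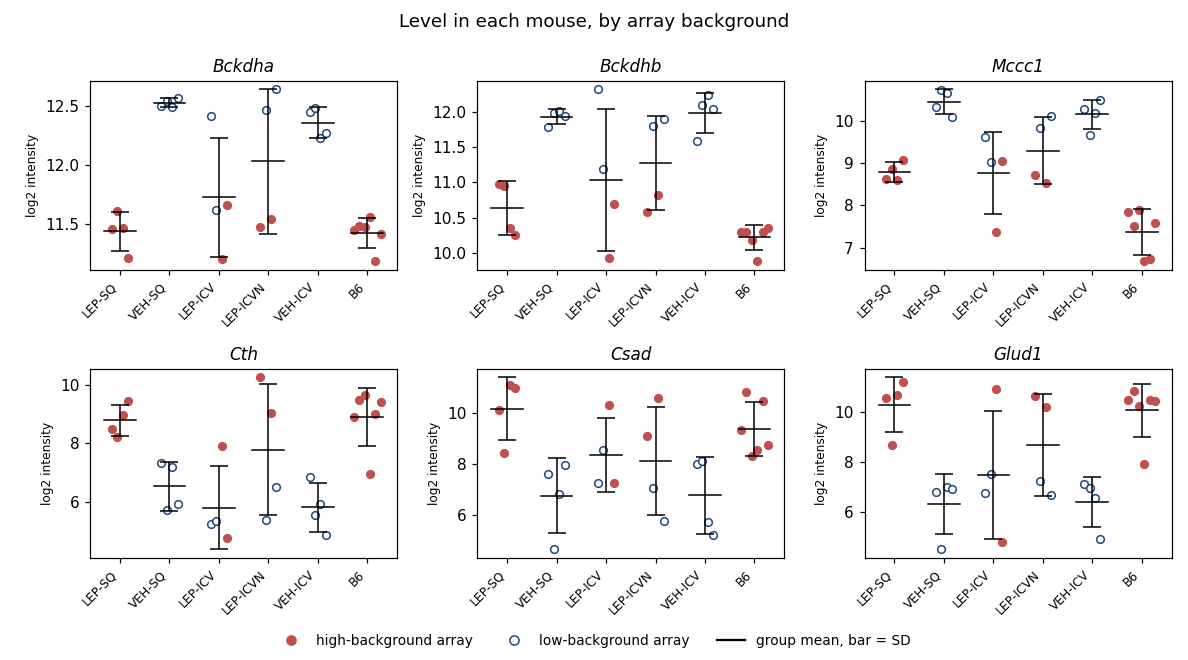
Log2 intensity of 6 genes in each of the 26 livers, by group, with the group mean and its SD as lines and the array background class as the fill of the point. Within LEP-ICVN the 2 high-class mice were lower for Bckdha, Bckdhb and Mccc1 and higher for Cth, Csad and Glud1 than the 2 low-class mice.

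For Hal and Prodh the difference from vehicle was unlike in the brain and subcutaneous arms. These arms also differed in dose, in selection by weight loss and in array class, from which the route cannot be told apart. Hal had levels of 12.65, 13.28, 12.72 and 12.98 in LEP-SQ mice, against 12.82, 12.69, 12.98 and 12.75 in VEH-SQ mice. Prodh had 10.68, 10.58, 10.39 and 9.75 in LEP-SQ mice, against 11.35, 10.77, 11.22 and 11.18 in VEH-SQ mice. Hal overlapped fully, and Prodh was lower in all LEP-SQ mice by an amount that did not pass the threshold (-0.78 ± 0.35, SE, limma adjusted p = 0.073). In the test of the difference between the 2 leptin effects, LEP-ICV minus VEH-ICV against LEP-SQ minus VEH-SQ, 3 of the 29 genes passed, all lower with brain leptin, against 0.792% of all named genes lower and 0.918% higher, or 1.71% in all. These were Hal (-2.33 ± 0.56, SE, limma adjusted p = 0.036), Prodh (-1.98 ± 0.49, SE, limma adjusted p = 0.042) and Dbt (-1.90 ± 0.41, SE, limma adjusted p = 0.018).

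With the block, Hal and Dbt remained past the threshold (limma adjusted p = 0.049 and 0.046, with 0.516% of all named genes lower) and Prodh did not (-1.96, limma adjusted p = 0.066). None of the 3 passed under median scaling or with only these 4 groups in the fit, and none without VEH_ICV_1011 or LEP_ICV_1014. In the 16 fits that each left out 1 mouse, Hal passed in 5, Prodh in 4 and Dbt in 14. Dbt had levels of 10.25, 10.87, 10.37 and 10.65 in LEP-SQ mice, against 10.31, 9.08, 10.10 and 10.09 in VEH-SQ mice, which overlapped. Its second probe gave -0.089 for the difference of effects (limma adjusted p = 0.95), so that the result for Dbt rests on 1 of its 2 tested probes. Gpt2 leaned the other way, with a smaller decrease under brain leptin (1.22 ± 0.34, SE), and did not pass (limma adjusted p = 0.070). For Aass the 2 leptin effects differed by -0.61 ± 0.57 (SE, limma adjusted p = 0.61).

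**Figure D4:**
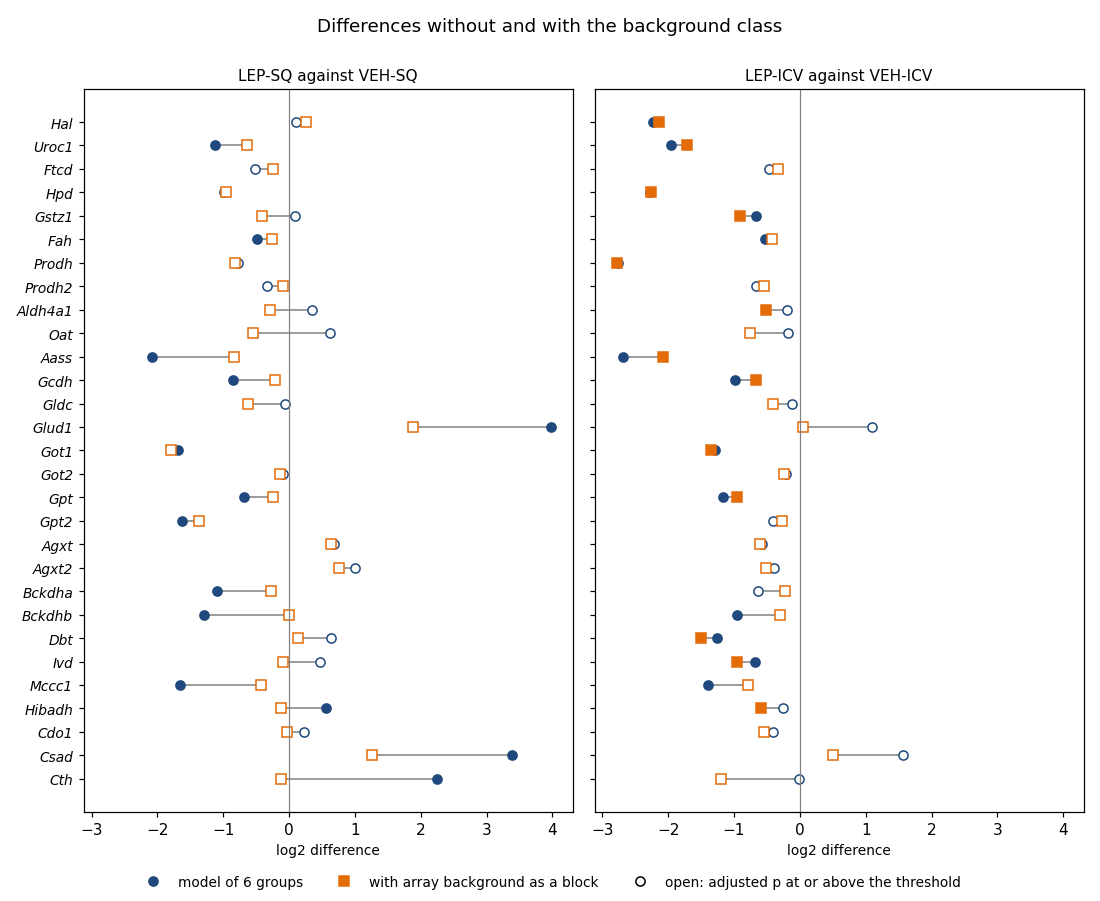
Log2 difference of each of the 29 genes for LEP-SQ against VEH-SQ (left) and LEP-ICV against VEH-ICV (right), without the background class (circles) and with it as a block (squares); filled symbols have a limma adjusted p under 0.05. On the left 14 circles and 0 squares are filled, and on the right 14 circles and 13 squares.

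Relative to lean B6 livers, the 8 vehicle-treated ob/ob livers (VEH-SQ and VEH-ICV with equal weight) had 13 of the 29 genes higher and 7 lower (limma), where 67.3% of all named genes were called, 35.4% higher and 31.9% lower. The vehicle ob/ob arrays belonged to the low class and the B6 arrays to the high one, so that genotype and class cannot be told apart here either. With the block, 5 genes were higher and none lower, against 5.1% and 2.74% of all named genes (7.85% in either direction), namely Mccc1 (1.70), Aass (1.38), Gpt2 (1.10), Gldc (1.07) and Got2 (0.50).

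Mccc1 had 9.67 or more in vehicle ob/ob mice, against 6.68 at the lowest, 7.54 at the median and 7.89 at the highest in B6 mice, and the groups did not overlap. The difference of vehicle ob/ob over B6 was 2.93 ± 0.30 (SE, 7.63-fold higher, limma adjusted p = 7.2e-08), and 1.25 (limma adjusted p = 0.046) when the 2 high-class LEP-ICVN mice stood in for the vehicle groups. Aass had 10.91 or more in vehicle ob/ob mice, against 8.31 at the lowest, 8.48 at the median and 8.94 at the highest in B6 mice. It differed by 2.62 ± 0.31 (SE, 6.15-fold higher, limma adjusted p = 3.5e-07), and with the high-class LEP-ICVN mice in place by 0.84 (limma adjusted p = 0.20). The dim Aass probe went the other way (limma adjusted p = 9.7e-04), but it was detected on no vehicle ob/ob array and on 4 of 6 B6 arrays, so that no fold is given. Uroc1 was higher in vehicle ob/ob livers by 1.61 ± 0.24 and Gpt2 by 1.36 ± 0.18 (SE), while Hal differed by -0.07 ± 0.30, Prodh by 0.45 ± 0.27 and Hpd by 0.49 ± 0.35 (SE) without passing the threshold.

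The 7 lower genes were Glud1 (-3.71), Cth (-2.73), Csad (-2.60), Dbt (-0.99), Agxt (-0.75), Ivd (-0.74) and Aldh4a1 (-0.38), and none of them passed with the block. Dbt again depended on the probe, since its dimmer probe, not detected on any B6 array, was at least 2.89-fold higher in vehicle ob/ob livers (limma adjusted p = 4.8e-06). Gldc differed by 0.50 on its brighter probe and by -1.73 on its dimmer probe (limma adjusted p = 0.029 and 0.0030). Ftcd differed by 0.76 on its brighter probe (limma adjusted p = 3.6e-04), and its dimmer probe was detected on no vehicle ob/ob array and on 5 of 6 B6 arrays.

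LEP-SQ and B6 arrays were all in the high class, and here 1 of the 29 genes passed the threshold, as higher, where 7.28% of all named genes were called, 5.03% higher and 2.25% lower (limma). With the class as a block the same single gene passed, against 8.45% of all named genes higher and 4.21% lower. This was Mccc1, with levels of 8.62, 8.87, 8.60 and 9.08 in LEP-SQ mice, all above the highest B6 level of 7.89 (1.42 ± 0.36, SE, limma adjusted p = 0.018). It was lost without LEP_SQ_1041 (1.32, limma adjusted p = 0.073) and on the authors' normalized values (0.72, limma adjusted p = 0.063). The 29 differences ran between -0.74 and 1.42 with a median of 0.04, and Aass (0.51 ± 0.37), Uroc1 (0.46 ± 0.29), Gpt2 (-0.14 ± 0.22) and Hal (-0.0048 ± 0.36) were among those that did not pass (SE). A second Gcdh probe was higher in LEP-SQ livers (1.34, limma adjusted p = 0.022), while its brighter probe differed by 0.04. A second Ftcd probe, detected on 1 of 4 LEP-SQ and 5 of 6 B6 arrays, was lower in LEP-SQ livers (-1.10, limma adjusted p = 0.038), while the brighter one differed by 0.16. The second probes of Dbt (0.25, against -0.49 on the brighter probe) and Aass disagreed as well and did not pass. A fit with only these 10 mice called 6 genes, with Mccc1, Aass and Uroc1 higher and Hpd, Prodh2 and Dbt lower in LEP-SQ livers, against 13.4% of all named genes higher and 9.86% lower.

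**Figure D5:**
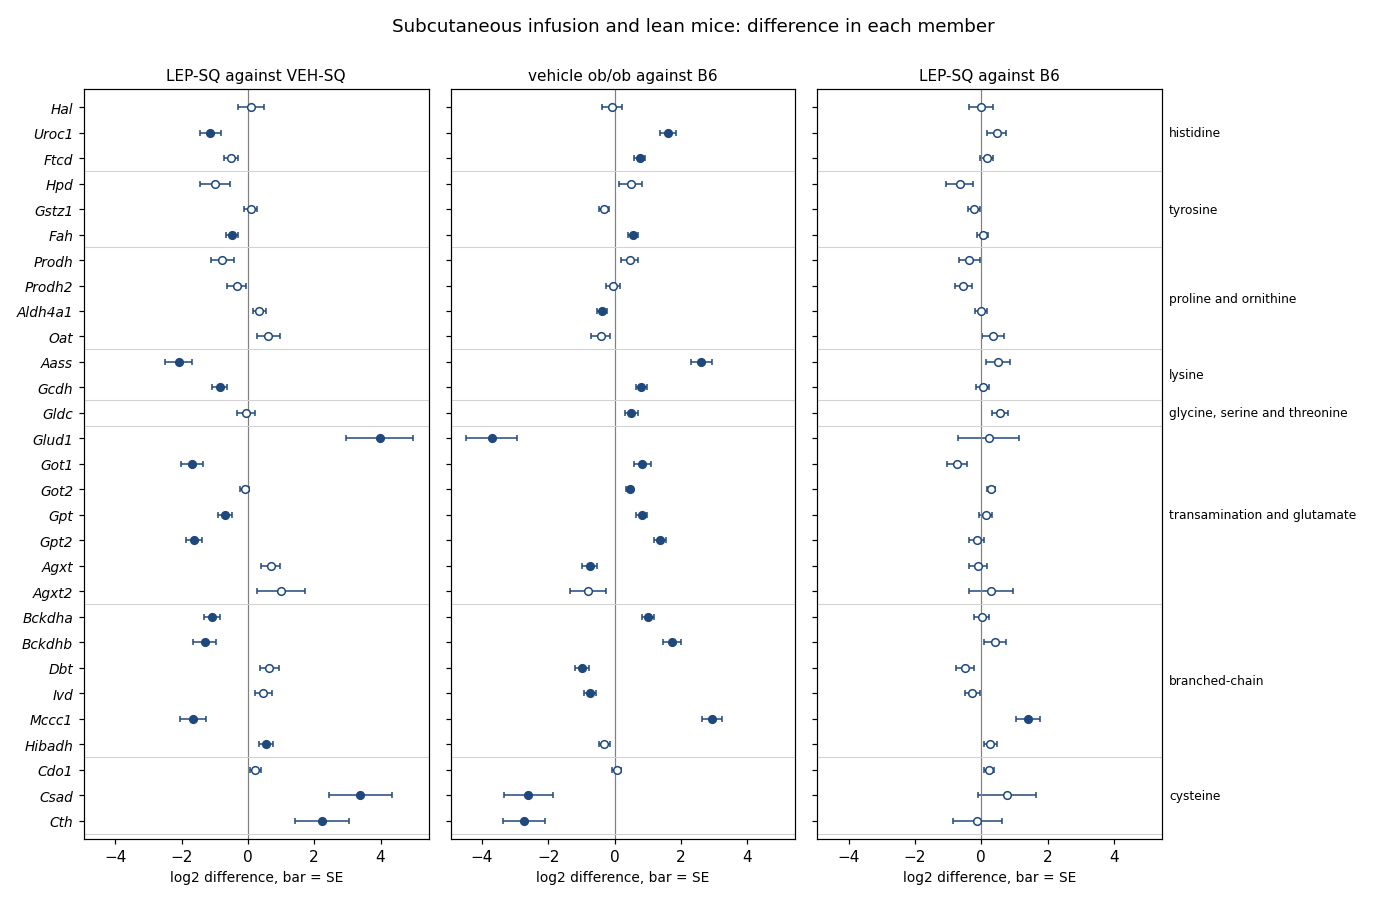
Log2 difference of each of the 29 genes for LEP-SQ against VEH-SQ, vehicle ob/ob against B6 and LEP-SQ against B6, ordered by route, with SE bars; filled points have a limma adjusted p under 0.05. In the third panel, where both groups share an array class, Mccc1 (1.42) was the only filled point.

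Further genes of amino acid breakdown were listed beside the 40. Of 31 tested, 15 were lower and 2 higher in LEP-ICV against VEH-ICV, with a median of -0.66, against 11.5% and 13.5% of all named genes. With the class as a block 10 were lower and 2 higher, against 5.32% and 7.24% of all named genes. The 4 with the largest changes were Dhtkd1, a ketoadipate dehydrogenase subunit of lysine breakdown (-2.21), Dpyd and Abat of pyrimidine, beta-alanine and GABA breakdown (-2.13 and -2.10), and Aldh18a1, which takes the first steps of proline synthesis from glutamate and was higher (1.86 ± 0.32, SE, limma adjusted p = 3.0e-04). Bckdk, the kinase that switches off the branched-chain dehydrogenase, was the other higher gene (1.27 ± 0.32, SE, limma adjusted p = 0.0066). Dpyd and Abat were on the study's own list as well. Aldh18a1 also passed in the difference between the 2 leptin effects (1.96, limma adjusted p = 0.026), opposite in sign to Prodh. Of 12 tested hormonal regulators and their classic targets, Igfbp1 was higher (2.13) and Pck1 (-2.21) and Klf15 (-1.32) were lower in LEP-ICV than in VEH-ICV livers, and Pck1 lost its call with the block (-1.03, limma adjusted p = 0.21).

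Marker genes of other cells moved in the same comparison, in which 11.5% of all named genes were lower and 13.5% higher (5.32% and 7.24% with the class as a block). All 3 tested of 5 listed markers of lipid-laden macrophages (Gpnmb 4.89, Mmp12 4.56 and Lgals3 1.95) were higher in LEP-ICV livers, with mean levels of 11.02 to 12.66 against 7.18 to 8.71 in VEH-ICV livers, and 4 of 5 tested Kupffer cell markers were higher, with mean levels of 9.44 to 10.14 against 8.34 to 9.41. Of 6 tested markers of periportal hepatocytes, 3 were lower, with mean levels of 10.82 to 11.97 in LEP-ICV against 12.38 to 12.57 in VEH-ICV livers. The 3 were Arg1 (-1.87), Ass1 (-1.65) and Pck1 (-2.21), which are enzymes of the urea cycle and of glucose synthesis as well. With the class as a block Arg1, Ass1 and Cps1 were lower and Cdh1 was higher. Of 6 tested markers of pericentral hepatocytes, Rhbg (-1.50) and Cyp1a2 (-1.08) were lower and Axin2 (0.71) was higher, with mean levels of 9.93 to 11.25 in LEP-ICV against 11.06 to 11.28 in VEH-ICV livers. With the block Rhbg and Cyp1a2 kept their calls and Axin2 did not (0.66, limma adjusted p = 0.13). Of 4 tested markers of the sinusoidal endothelium, Clec4g (0.75) and Lyve1 (2.19) were higher, with mean levels of 9.19 to 10.08 in LEP-ICV against 8.82 to 9.17 in VEH-ICV livers, and with the block none passed. Arg1, Ass1, Gpnmb and Mmp12 were on the study's own list. Of the 7 hepatocyte markers Hp was higher (0.90) and Alb lower (-2.89). The part of these cell types in the results above was not tested.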

How the data were processed

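Liver RNA of 26 mice was hybridized to Illumina mouse bead arrays, 1 array per mouse. The authors deposited raw probe intensity values with a detection score per probe and array, exported from BeadStudio 2.0, and a table of log2 values made by the authors with lumi (robust spline normalization after a variance-stabilizing transformation). The score columns shared 1 header and were taken as belonging to the intensity column before them (lowest rank correlation 0.973). Intensities were corrected and quantile-normalized with neqc (limma 3.58.1, R 4.3.3, offset 16), with 1 minus the detection score as the detection p-value. Of 25697 probes, the 11001 detected (p-value below 0.01) on 4 or more arrays entered the test, in 1 limma model of 6 groups with Benjamini-Hochberg adjustment over all of them at 0.05. Gene symbols came from the platform annotation (1 symbol for 23978 probes, none for 1719). The deposited log2 values served as an alternative. The number of arrays limits the precision. Each p-value sets a difference between group means against the spread between mice within groups. Where the array class runs along with the groups, a class effect is part of that difference.

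Genes, routes, companion lists and tests were chosen with earlier results of these data known. Every called gene may be named. Values of every mouse are given for up to 3 genes of a route with the largest change among those called against a vehicle group and for genes called in the difference between the leptin effects. Probes are given apart where they disagree in direction, though for that difference only where the gene was called. From the further list the 4 largest called changes are named. Pck1, Klf15, Igfbp1, Bckdk and the cell type markers were named after their values were seen. Classes of array background were set by the largest gap in background intensity. Alternatives were median scaling, omission of the background correction, the authors' log2 values, no filter, detection on all arrays, only the groups compared, the class as a block, within a class, the mean of a gene's probes and leaving out each mouse. The statistics were tested first on simulated data with changes placed in LEP-SQ only. These data had no array class effect and the same spread in every group, so they do not test the calls against either. Weight changes of single mice were not used here.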

Additional observations from a re-analysis of the deposited data

Results flagged for a closer look

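The values of single mice in 11 cases stood far from the rest of their group, of 174 groups of 4 or 6 mice tested, and chance alone gives such a value in about 1 group in 20. In B6, B6_2021 was the lowest for 4 genes, Glud1 (7.91, with the others at 10.21 to 10.83), Agxt2 (9.05, others 10.07 to 10.66), Bckdhb (9.88, others 10.19 to 10.36) and Cth (6.95, others 8.89 to 9.67). In LEP-ICV, LEP_ICV_1014 was the lowest for Gstz1 (13.07, others 14.05 to 14.19) and LEP_ICV_1017 the highest for Dbt (9.90, others 8.46 to 8.67). In LEP-SQ, LEP_SQ_1041 was the lowest for Oat (14.18, others 14.73 to 14.77) and LEP_SQ_1029 the highest for Cdo1 (15.16, others 14.97 to 14.99). Mouse VEH_SQ_1034 was the lowest VEH-SQ mouse for Glud1 (4.51, others 6.79 to 7.0), VEH_SQ_1040 the highest VEH-SQ mouse for Cdo1 (15.04, others 14.69 to 14.74), and VEH_ICV_1002 the lowest VEH-ICV mouse for Fah (15.35, others 15.45 to 15.47).

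The other 3 results concern genes whose difference from vehicle was unlike in the brain and subcutaneous arms, which also differed in dose and in selection by weight loss. As brain minus subcutaneous effect, these were Hal (-2.33), Prodh (-1.98) and Dbt (-1.90). For Dbt the second probe did not give this difference.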

How the results depend on the processing

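With array class as a block the count of genes passing the threshold was 0 for LEP-SQ against VEH-SQ (14 without it) and 5 for vehicle ob/ob against B6 (20 without it), and 2 when the high-class LEP-ICVN mice stood in for the vehicle ob/ob mice. With these mice in place, 296 of all 7953 named genes were higher and 150 lower. A fit with only the groups compared gave 5 genes for LEP-ICV against VEH-ICV (14), 0 for LEP-ICV against LEP-ICVN (10), 6 for LEP-SQ against B6 (1) and 0 for the difference between the leptin effects (3). LEP-ICV against LEP-ICVN gave 4 genes within the low and 6 within the high class, from fewer mice. LEP-SQ against B6 gave 2 without background correction and 2 without the filter, and the difference between the leptin effects gave 0 under median scaling and 1 without the filter. Of all 7953 named genes, LEP-SQ against B6 had 377 higher and 228 lower without background correction, and 332 and 146 without the filter. The difference between the leptin effects had 12 higher and 7 lower under median scaling, and 53 and 39 without the filter.

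Leaving out 1 mouse at a time, the counts ran between 11 and 14 for LEP-SQ against VEH-SQ, 10 and 18 for LEP-ICV against VEH-ICV, 0 and 5 for LEP-ICVN against VEH-ICV (5 without LEP_ICVN_1016), 5 and 11 for LEP-ICV against LEP-ICVN (5 without LEP_ICV_1014), 18 and 20 for vehicle ob/ob against B6, 0 and 1 for LEP-SQ against B6 (0 without LEP_SQ_1041), and 0 and 6 for the difference between the leptin effects. That last count was 0 without VEH_ICV_1011 or LEP_ICV_1014, 1 without VEH_SQ_1007, VEH_SQ_1034, VEH_SQ_1035, VEH_SQ_1040, LEP_SQ_1032, LEP_SQ_1039, VEH_ICV_1012 or LEP_ICV_1019, 5 without LEP_ICV_1017 and 6 without LEP_ICV_1003.

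Under median scaling the median of all genes was 0.56 in LEP-SQ against VEH-SQ (-0.04 otherwise) and -0.65 in vehicle ob/ob against B6 (0.07 otherwise), and the split of calls became 7 higher and 3 lower (4 and 10) and 7 higher and 11 lower (13 and 7). Of all 7953 named genes, 2500 were then higher and 356 lower (4.48%) in the first comparison. In the second, 1071 were higher and 4210 lower (52.9%), so that calls shifted across all genes. The median of all genes was 0.47 in LEP-ICV against VEH-ICV (0.0099 otherwise), where 10 of the 29 genes were lower and none higher. Of all 7953 named genes, 273 (3.43%) were lower and 1476 higher there. Among genes called with either setting, signs turned for 10 values in vehicle ob/ob against B6: Got1 under median scaling (-0.15), Aldh4a1 with the block (0.26), Fah (-0.15), Aldh4a1 (0.098), Glud1 (0.35), Csad (0.45) and Cth (0.74) with LEP-ICVN in place, and Ftcd (-0.25), Gldc (-0.61) and Dbt (0.48) for the mean of a gene's probes. With the block, the called genes Hibadh (-0.12) and Cth (-0.13) turned in LEP-SQ against VEH-SQ. The cause of these changes was not tested. Of the 14 genes lower in LEP-ICV against VEH-ICV, Hal, Uroc1, Prodh and Aass passed under all 9 alternatives and without any of the 8 mice. No paired analysis was possible because the labels give each mouse its own number.

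Probes near the detection limit, above all those of Glud1, Csad and Cth, limit what can be said of these genes.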
